A study of Mus musculus with 12 samples.

Results

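The cytosolic ribosome, which makes nearly all of a cell's protein, is built from ribosomal RNA and many small, mostly basic proteins, largely in the nucleolus. The genes described here encode those proteins: symbols of the form Rpl or Rps followed by a number, together with Rpsa, Rplp0, Rplp1 and Rplp2, and without pseudogene names or the Rps6 kinases. This rule found 86 of the 33531 genes in the deposited table, 50 of the large and 36 of the small subunit, and 83 passed the filter for testing, 48 and 35. Rpl3l, Rpl10l and Rps12l1 did not pass. RefSeq annotates Rps12l1, Rps3a2, Rps3a3 and Rps4y2 as pseudogenes, so their values and those of Rps3a1 and Rps4x, which share sequence with them, are uncertain. Rpl13 was not analysed here.

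As background, ribosomal protein mRNAs are short, abundant and stable. In vertebrates most begin with a cytosine followed by a run of pyrimidines, the 5′ terminal oligopyrimidine (TOP) motif, through which mTORC1 and the RNA-binding protein Larp1 control their translation together. Loss of one copy of several of these genes causes Diamond-Blackfan anemia in humans, a failure of red cell production, and in mice lowered dosage of single members alters pigmentation, the skeleton or blood formation.

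Polyadenylated RNA was sequenced from 12 libraries of mouse embryos at embryonic day 11.5, 3 in each of 4 populations sorted from the dorsal aorta, umbilical and vitelline arteries of 122 embryos. All embryos carried the Tg(Ly6a-GFP) transgene from the father and had C57BL/6 x 129S1/SVImJ F1 mothers. Hematopoietic cluster cells (HC, CD31+ CD144+ ESAM+ c-Kit+) and endothelial cells (EC, the same antigens but c-Kit-) were divided by GFP, which reports the transgene and not Ly6a itself. The populations were HC GFP+ (53000 cells in all), HC GFP- (413000), EC GFP+ (377000) and EC GFP- (791000), each pooled into 3 samples that the labels call independent. Values are FPKM, by definition fragments scaled to the length of the transcript and to all mapped fragments of the library. The lengths used are not known from the sources used here, so the order of levels between genes, very short ones above all, is uncertain.

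The FPKM sums of the libraries ran between 555675 and 691948, and the depth behind them is unknown. Replicates correlated between 0.956 and 0.979 across genes (Pearson r of log2 values). A list of 7 hematopoietic cluster markers summed to 101 to 129 FPKM in HC GFP+ and 39.9 to 43.5 in HC GFP-. The sums were 26.5 to 40.3 in EC GFP+ and 24.4 to 36.5 in EC GFP-, where up to 2 markers were listed at 0 in a library. Kit, whose product the sort used, held 19.2, 25.8 and 19.1 FPKM of the HC GFP- sums. Kit, Ptprc, Runx1 and Myb were higher in every HC GFP- library than in any EC GFP+ library, and Itga2b overlapped. Gfi1 (0.315, 0.901 and 0.481 FPKM against 1.87, 4.69 and 2.30) and Spn were lower. The 8 endothelial markers were above 0 in every library and summed to 2474 to 2763 FPKM in HC GFP+, 1995 to 2674 in HC GFP-, 3493 to 3771 in EC GFP+ and 2237 to 2897 in EC GFP-. The 11 erythroid markers summed to 854 to 1194 FPKM in HC GFP+ against 6522 to 9978 in HC GFP-, and to 978 to 2486 in EC GFP+ against 3415 to 7986 in EC GFP-. The 8 macrophage markers stood at 217 to 1338 FPKM in HC GFP+, 223 to 730 in HC GFP-, 9.14 to 29.7 in EC GFP+ and 10.7 to 16.0 in EC GFP-. The 4 cycling markers summed to 409 to 430 FPKM in HC GFP+ against 458 to 499 in HC GFP-, and to 386 to 402 in EC GFP+ against 462 to 523 in EC GFP-. The 12 smooth muscle and mesenchyme markers stood at 384 to 750 FPKM in HC GFP+ against 551 to 1586 in HC GFP-, and at 370 to 648 in EC GFP+ against 369 to 1493 in EC GFP-.

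The ribosomal protein genes made up between 17.4 and 22.0% of the summed FPKM of a library. Their share was 18.5, 19.2 and 20.8% in the HC GFP+ libraries, against 19.96, 20.8 and 20.2% in HC GFP-. It was 17.5, 19.1 and 17.4% in EC GFP+, against 21.0, 19.6 and 22.0% in EC GFP-. The 2 HC groups overlapped and the 2 EC groups did not, and the mean of EC GFP+ was the lowest of the 4. With the mitochondrially encoded and globin genes taken out of the total, the group means were 20.5 ± 1.11% in HC GFP+, 21.8 ± 0.569% in HC GFP-, 19.1 ± 1.20% in EC GFP+ and 23.1 ± 1.40% in EC GFP- (SD, n = 3 each).

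The mitochondrially encoded genes moved with the GFP label in both cell types. They held 5.93, 6.47 and 4.66% of the summed FPKM in EC GFP+ against 8.53, 8.74 and 8.76% in EC GFP-. Part of that gap was the very short mt-Atp8, at 10916, 10038 and 6872 FPKM in EC GFP+ against 24286, 21898 and 21349 FPKM in EC GFP-. In HC the mitochondrial share was 4.96, 4.34 and 3.80% in GFP+ against 5.11, 5.34 and 5.73% in GFP-. Neither pair of groups overlapped. The sums of the cycling and of the erythroid markers were likewise lower in every GFP+ library than in any GFP- library of the same cell type. The sum of the endothelial markers was higher in EC GFP+ than in EC GFP- without overlap. Single markers did overlap, among them Mki67, Hbb-bt, Slc4a1 and Egfl7 in EC and Cdk1 in HC. The part of the marker lists in the results below was not tested, and that of the mitochondrial and globin genes was examined only by a scaling that leaves them out of the total.

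**Figure D1:**
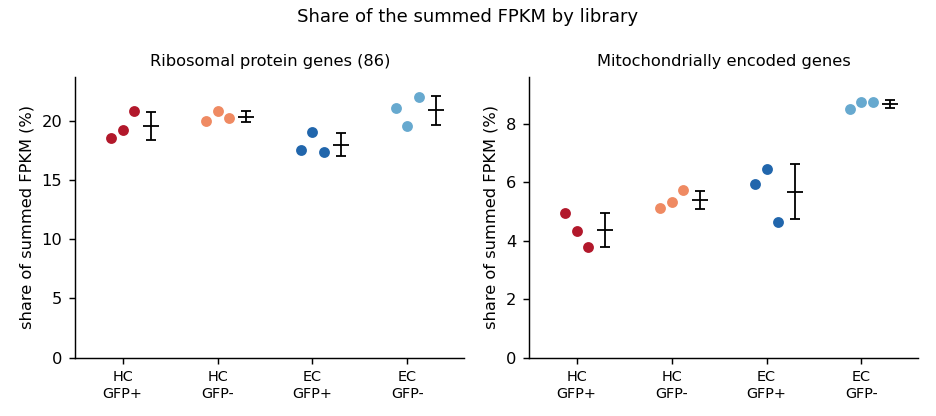
Share of the summed FPKM held by the 86 ribosomal protein genes (left) and by the mitochondrially encoded genes (right), in percent, for each of 12 libraries in 4 groups; points are libraries and the bar to their right is the mean with its SD. The ribosomal share is lowest in EC GFP+, at 17.4 to 19.1%, and the mitochondrial share is highest in EC GFP-, at 8.53 to 8.76%.

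Individual members covered a wide range of levels. The median of their mean FPKM over the 12 libraries was 1266, against 12 over all tested genes, and 63 of the 86 were among the 100 genes with the highest mean. There were 57 members at 1000 FPKM or more and 17 at 2000 or more. The highest were Rpl13a (mean 4483 FPKM), a large-subunit protein that in human monocytes also takes part in translational silencing after interferon gamma, Rplp1 (3693), an acidic protein of the stalk that recruits translation factors, Rps24 (3183), Rpl41 (2966), which at 25 amino acids is the shortest of the family, and Rps15 (2761).

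The lowest members were paralogs and a pseudogene. Rpl7l1, a relative of Rpl7, had a mean of 53.5 FPKM, and Rpl39l, which in mice is enriched in testis, had 1.39. Rps12l1 (0.301), the striated-muscle paralog Rpl3l (0.117) and Rpl10l (0.0676), which stands in for the X-linked Rpl10 in mouse male germ cells, lay under 1 FPKM. Rpl3l was listed at 0 in all 3 EC GFP+ libraries, and Rpl10l in all 3 HC GFP+ and all 3 EC GFP+ libraries. The order of members by level was close to the same in every population, with Spearman's rho between 0.975 and 0.995 for the 6 pairs of groups across the 83 tested members, which is a description across genes that share libraries and lengths.

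RefSeq start sites (build GRCm38.p6) were found for 62 of the 86 members. A cytosine at the start followed by at least 4 pyrimidines was present in 12 of them (19.4%), against 673 of 27025 genes (2.49%). A run of 6 or more pyrimidines (C or T, on the strand of the gene) within 10 bases before to 20 bases after the start was present in 35 members (56.5%), against 28.6% of all genes. The 2 searches overlap. The windows below run from 30 bases before to 20 bases after the start, with the longest such run in capitals, for members that the comparisons turn on; a run is a description of these letters and not a mapped start.

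Rpl38 (chr11:114668550-114668599, plus strand): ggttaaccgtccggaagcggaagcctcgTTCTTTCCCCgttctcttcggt
Rps15a (chr7:118116128-118116177, minus strand): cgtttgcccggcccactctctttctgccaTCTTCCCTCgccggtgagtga
Rps27 (chr3:90213629-90213678, minus strand): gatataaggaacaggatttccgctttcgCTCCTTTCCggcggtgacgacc
Rps6 (chr4:86857348-86857397, minus strand): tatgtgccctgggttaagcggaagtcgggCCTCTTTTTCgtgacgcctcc
Rps24 (chr14:24490648-24490697, plus strand): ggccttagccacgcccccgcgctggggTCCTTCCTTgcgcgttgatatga
Rps26 (chr10:128626487-128626536, minus strand): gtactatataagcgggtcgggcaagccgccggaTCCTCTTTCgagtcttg
Rpl22l1 (chr3:28805478-28805527, plus strand): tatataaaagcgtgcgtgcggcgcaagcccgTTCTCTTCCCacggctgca
Rpl22 (chr4:152325696-152325745, plus strand): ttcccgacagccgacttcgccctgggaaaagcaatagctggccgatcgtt
Rps19 (chr7:24884562-24884611, plus strand): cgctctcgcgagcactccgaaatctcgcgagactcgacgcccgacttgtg

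Rpl38, Rps15a, Rps27 and Rps6 have the cytosine start with its pyrimidines, Rps24, Rps26 and Rpl22l1 have a run near the annotated start, and Rpl22 and Rps19 have no run of 6 in the searched window.

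Genes were compared with limma on log2(FPKM + 1), which understates changes of low genes, and a member was called at a Benjamini-Hochberg adjusted p under 0.05 over all 13278 tested genes. Log2 differences are given with their SE. The comparisons share libraries: the same GFP+ or GFP- group enters several of them, so their results are not independent of each other. In bulk samples, fewer cells of a type and less RNA per cell cannot be told apart.

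HC GFP+ were compared with HC GFP- to ask whether the cluster cells with an active reporter differ. With limma, none of the 83 members was higher and none lower, where 2.98% of all tested genes were higher and 1.28% lower. At an unadjusted p under 0.05, 0 members were higher and 3 lower. At that threshold 1295 of all 13278 tested genes were higher and 964 lower. The median difference of the members was -0.10, against 0.0014 over all tested genes, and 74 of 83 lay below 0. The 3 libraries of each group did not overlap for 9 members, all lower in GFP+, where 10.5% of all tested genes were separated in that direction and 13% in the other. The share of members set apart as lower was thus near that of all genes, and none was set apart as higher.

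The paralog pair Rpl22 and Rpl22l1 shows the size of these differences. Rpl22, a large-subunit protein that mouse alpha-beta T cells need to develop, stood at 977, 1051 and 1017 FPKM in HC GFP+ against 1038, 1174 and 1047 FPKM in HC GFP-. Its paralog Rpl22l1 stood at 359, 355 and 372 FPKM in HC GFP+ against 442, 428 and 438 FPKM in HC GFP-. The groups overlapped for Rpl22 and were apart for Rpl22l1, which did not pass (log2 -0.27 ± 0.11, limma adjusted p = 0.235). Quantile normalization turned the median to 0.027 and gave 5 members higher and none lower, against 3.1% and 1.82% of all tested genes.

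EC GFP+ were compared with EC GFP- to ask the same of the arterial endothelium, and here much of the family was lower. Of 83 members 48 fell (57.8%), 0 rose and 35 did not pass, against 6.51% of all tested genes lower and 6.96% higher. The median difference was -0.38, against -0.034 over all tested genes, and the difference lay below 0 for 82 members. Of the 48 large-subunit members 28 fell (median -0.37), and of the 35 small-subunit members 20 fell (median -0.41). The libraries did not overlap for 52 members, all lower in GFP+, where 16.7% of all tested genes were separated in that direction and 14.8% in the other. The differences of the called members lay between -0.79 and -0.25, and those of the other members between -0.45 and 0.04.

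**Figure D2:**
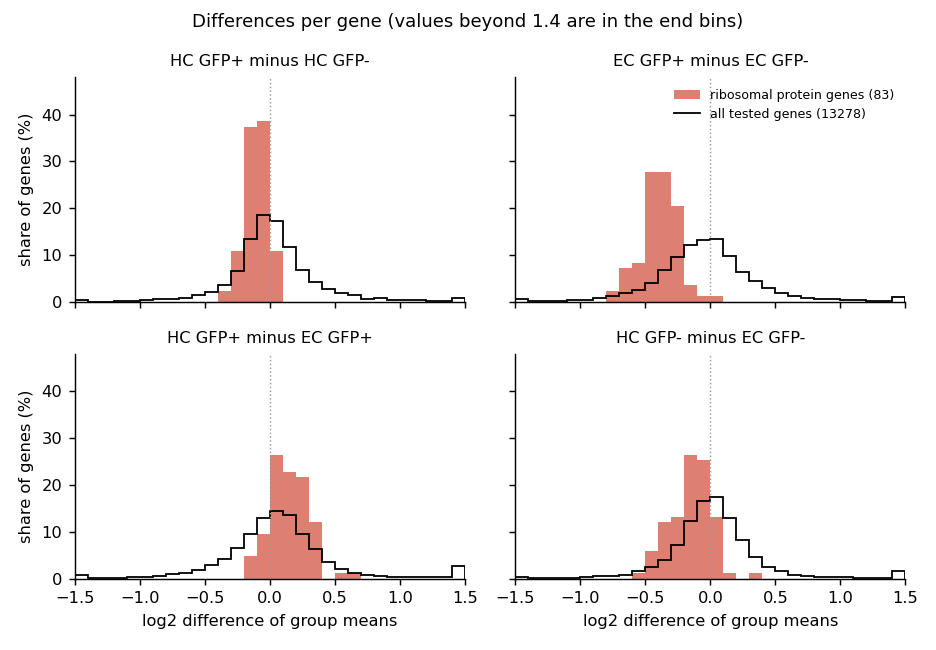
Distribution of the log2 difference of group means in 4 comparisons, for the 83 tested ribosomal protein genes (filled) and all 13278 tested genes (line), as percent of the genes in bins of 0.1. The members lie left of 0 in EC GFP+ minus EC GFP- (median -0.38) and nearer to 0 in the other comparisons (medians -0.10, 0.14 and -0.14).

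The largest falls were in Rps15a, Rps26, Rpl22l1, Rpl38, Rps27 and Rpl23a. Rps15a, a small-subunit protein, was at 1213, 1493 and 966 FPKM in EC GFP+ against 1781, 2102 and 2417 FPKM in EC GFP- (log2 -0.79 ± 0.16, limma adjusted p = 0.00837). Rps26, which lies where the mRNA leaves the small subunit and is a Diamond-Blackfan anemia gene in humans, was at 1828, 1970 and 1846 FPKM in EC GFP+ against 3056, 2720 and 3692 FPKM in EC GFP- (log2 -0.74 ± 0.11, limma adjusted p = 0.0015). In both genes every EC GFP+ library was below every EC GFP- library, and the Rps26 values of the 3 EC GFP+ libraries lay close together.

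Rpl22l1 stood at 349, 447 and 322 FPKM in EC GFP+ against 594, 538 and 642 FPKM in EC GFP- (log2 -0.67 ± 0.11, limma adjusted p = 0.00249). Rpl38, whose loss of one copy gives the Tail short mouse with its changed axial skeleton, was at 1324, 1591 and 1326 FPKM in EC GFP+ against 2266, 2034 and 2425 FPKM in EC GFP- (log2 -0.67 ± 0.11, limma adjusted p = 0.00253). Neither gene had overlapping libraries. Rps27, a small zinc-binding protein, averaged 2196 ± 313 FPKM in EC GFP+ and 3448 ± 383 FPKM in EC GFP-, and Rpl23a, which sits at the exit of the peptide tunnel, averaged 1468 ± 174 FPKM in EC GFP+ and 2315 ± 325 FPKM in EC GFP- (SD, n = 3 each).

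Several other members are Diamond-Blackfan anemia genes in humans as well, and among these Rps24, Rps7, Rpl35a, Rpl11 and Rpl5 fell in EC GFP+, while Rps10 and Rps19 did not pass. Rps24 was at 2541, 2752 and 2342 FPKM in EC GFP+ against 3841, 3800 and 4278 FPKM in EC GFP- (log2 -0.64 ± 0.09, limma adjusted p = 0.000994). Rpl5 and Rpl11, which with 5S ribosomal RNA bind the p53 regulator Mdm2, changed by log2 -0.35 ± 0.07 and -0.39 ± 0.11. Of the 25 alternatives, the call was lost under 1 for Rps24, 5 for Rpl5, 11 for Rpl35a, 17 for Rpl11 and 19 for Rps7. The 25 include centring libraries on the median ribosomal protein gene. That scaling removes a change shared by the family, so a call lost under it does not speak to such a change. Rps10 had a log2 difference of -0.28 ± 0.14 (adjusted p = 0.215 by limma). Rps19, the anemia gene found first, stood at 1903, 1955 and 1758 FPKM in EC GFP+ against 2243, 1766 and 1950 FPKM in EC GFP-, and these libraries overlapped (log2 -0.08 ± 0.10, adjusted p = 0.665 by limma).

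Other members with known phenotypes or roles divided as well. Rpl24, mutated in the belly spot and tail mouse, fell (log2 -0.43 ± 0.10), a call lost under 10 of the 25 alternatives, whereas Rpl27a (log2 -0.34 ± 0.11, adjusted p = 0.0628), Rps20 (-0.20 ± 0.11, adjusted p = 0.263) and Rpsa (-0.28 ± 0.12, adjusted p = 0.153), whose human gene is mutated in congenital asplenia, did not pass in the limma fit. Rps6, the ribosomal substrate of the S6 kinases, was at 1086, 1207 and 1063 FPKM in EC GFP+ against 1240, 1131 and 1402 FPKM in EC GFP-, with overlap (log2 -0.17 ± 0.09, limma adjusted p = 0.27). The 3 stalk genes Rplp0, Rplp1 and Rplp2 had differences of -0.28 to -0.38 on the log2 scale and did not pass. The most abundant member, Rpl13a, fell by 0.57 on the log2 scale (limma adjusted p = 0.036), although 1 EC GFP+ library, at 4917 FPKM, reached the lowest EC GFP- library, at 4911 FPKM. That call was lost under 12 of the 25 alternatives, among them leaving out replicate 1 or 3 of EC GFP+ or of EC GFP- (limma adjusted p between 0.102 and 0.133).

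**Figure D3:**
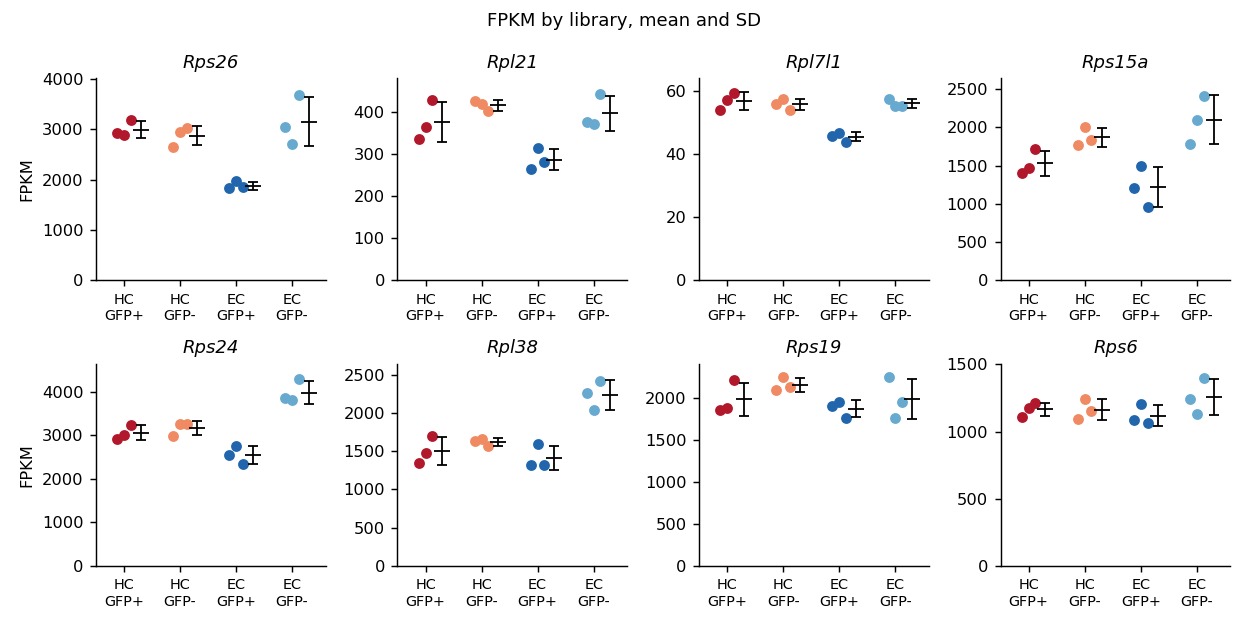
FPKM of 8 ribosomal protein genes in each of 12 libraries, in 4 groups; points are libraries and the bar to their right is the mean with its SD. Rps26, Rpl21 and Rpl7l1 are lowest in EC GFP+, Rps24 and Rpl38 are highest in EC GFP-, and the groups overlap for Rps19 and Rps6.

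The size of the call set in EC depended on single libraries and on scaling. It was 18 without EC GFP+ replicate 1 and also without replicate 3, where 3.56% and 3% of all tested genes were lower. It was 24 without EC GFP- replicate 1 (3.81% of all tested genes), 20 without EC GFP- replicate 3 (3.46%) and 67 without EC GFP- replicate 2 (9.21%). Rps26, Rpl38, Rpl22l1 and Rpl23a stayed called lower under each of the 25 alternatives tried, Rps15a and Rps24 under 24 and Rps27 under 23. Leaving out a library outside the comparison, here an HC library, changes only the shared spread and not the log2 difference. Those alternatives are weaker checks, in this and in every other count of alternatives. With every library brought to one common FPKM sum, the median of all tested genes was 0.14 and that of the members -0.18, and 25 members were lower and none higher, against 2.15% and 14.4% of all tested genes. With the common sum taken over genes other than ribosomal protein, globin and mitochondrial genes, 46 members were lower and none higher with a median of -0.31, against 4.15% and 8.67% of all tested genes. Quantile normalization gave 13 members lower and 3 higher with a median of -0.048, against 4.56% and 6.9% of all tested genes.

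Length moved with the result too. The 80 tested members with a protein length ran from 25 to 419 amino acids with a median of 151, against 452 for the 12293 tested genes with a length. Among genes outside the family, the median EC difference was -0.22 for proteins of up to 100 amino acids, -0.17 for 101 to 200, -0.084 for 201 to 300, -0.041 for 301 to 500, 0.0048 for 501 to 1000 and 0.085 for more than 1000. The members lay below the other genes in each length class that held any, at -0.46, -0.38, -0.35 and -0.25, the last from 3 members. Other nuclear genes with a mean of 200 FPKM or more and at most 200 amino acids had a median of -0.28, and 47 of 130 fell (36.2%).

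**Figure D4:**
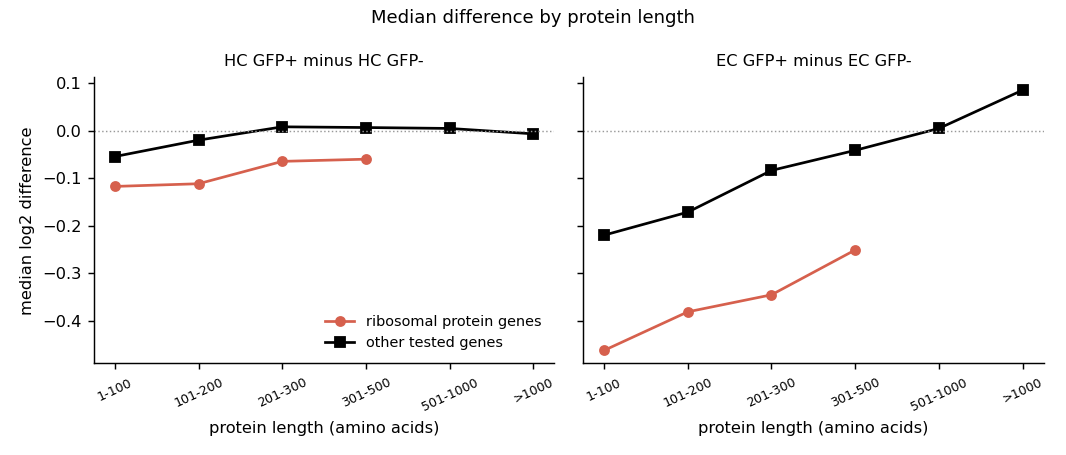
Median log2 difference by protein length in amino acids, for ribosomal protein genes (circles) and other tested genes (squares), in HC GFP+ minus HC GFP- (left) and EC GFP+ minus EC GFP- (right). In EC the median of other genes climbs with length, -0.22 in the shortest class and 0.085 in the longest, and the members lie below it, at -0.46 to -0.25.

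With the trend on protein length removed, 25 of 80 members fell in EC GFP+ and the median was -0.21, against 4.96% of all genes lower and 8.32% higher. With trends on length and mean level removed together, an alternative chosen after seeing the data, 13 fell and 1 rose with a median of -0.048, against 4.94% of all genes lower and 8.87% higher. Rps26 was still lower by 0.52 and 0.32 on the log2 scale in these 2 fits (limma adjusted p = 0.000507 and 0.00723). The calls on Rpl11, Rpl35a and Rps7 did not hold in either fit.

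Members also differed from one another in EC when libraries were centred on the median ribosomal protein gene, which leaves changes of proportion within the family. In that scaling 8 members were lower and 9 higher in EC GFP+, against 0.693% and 34.3% of all tested genes, whose median moved to 0.37. Relative to the family, Rps15a (log2 -0.39), Rps26 (-0.34), Rpl22l1 (-0.27), Rpl38 (-0.27), Rps27 (-0.25), Rpl23a (-0.25) and Rps24 (-0.24) were lower. Rps19 (0.32), Rps6 (0.23), Rpl3 (0.22), Rps20 (0.20), Rpl10 (0.16) and Rps4x (0.13) were higher. For Rps19 the limma adjusted p was 0.00596, and for Rps6 it was 0.011. Across the 80 members with a length, the EC difference rose with protein length (Spearman's rho 0.38, against 0.23 over all tested genes with a length). The lower members named here have 70 to 156 amino acids. The higher ones have 119 (Rps20), 145 (Rps19), 214 (Rpl10), 249 (Rps6), 263 (Rps4x) and 403 (Rpl3). The part of length in these proportions was not tested.

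HC GFP+ were compared with EC GFP+ to set the cluster cells against the wall they lie on, both with an active reporter. Of 83 members 5 rose (6.02%), among them Rps26, Rpl21, Rpl6 and Rpl7l1, none fell and 78 did not pass, against 8.21% of all tested genes higher and 6.09% lower. The median of the members was 0.14 and that of all tested genes 0.052. The libraries did not overlap for 22 members, all higher in HC GFP+, where 19.6% of all tested genes were separated in that direction and 13.8% in the other. The called share of the family was below that of all genes.

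Rps26 was at 2920, 2881 and 3182 FPKM in HC GFP+ against 1828, 1970 and 1846 FPKM in EC GFP+, a ratio of means of 1.59 (log2 0.67 ± 0.11, limma adjusted p = 0.00238). All HC GFP+ libraries were above all EC GFP+ libraries, and the call held under each of the 25 alternatives, with log2 differences of 0.55 to 0.70.

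Rpl21, a large-subunit protein, was at 335, 364 and 428 FPKM in HC GFP+ against 265, 313 and 280 FPKM in EC GFP+ (log2 0.39 ± 0.10, limma adjusted p = 0.0299). Rpl6, also of the large subunit, was at 710, 771 and 852 FPKM in HC GFP+ against 581, 618 and 621 FPKM in EC GFP+ (log2 0.35 ± 0.08, limma adjusted p = 0.0166). Rpl7l1 was at 54.0, 57.2 and 59.4 FPKM in HC GFP+ against 45.8, 46.8 and 44.0 FPKM in EC GFP+ (log2 0.31 ± 0.06, limma adjusted p = 0.00637). Each pair of groups was apart. The Rpl21 call was lost under 7 of the 25 alternatives, including without HC GFP+ replicate 3 (adjusted p = 0.0971) and without EC GFP+ replicate 1 (adjusted p = 0.111), which also ended the Rpl6 call (adjusted p = 0.0574 and 0.0681).

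The number higher in HC GFP+ was 3 without HC GFP+ replicate 3 or EC GFP+ replicate 1 (5.68% and 5.41% of all tested genes), and 8 without EC GFP+ replicate 2 or EC GFP- replicate 3 (5.52% and 8.92%). At one common FPKM sum 15 members were higher and none lower, against 7.12% and 6.22% of all tested genes. With the trends on length and level removed 26 were higher and 1 lower, against 8.79% and 8.86%. Relative to the family median 8 members were higher and 1, Rps7, was lower (log2 -0.26, limma adjusted p = 0.0287), against 4.17% and 6.6% of all tested genes. Rps26 (0.55), Rpl21 (0.27), Rpl6 (0.24), Rpl23a (0.22), Rpl24 (0.20) and Rps4x (0.17) were among the higher ones.

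HC GFP- were compared with EC GFP- to ask the same of cells without an active reporter. None of the 83 members rose and 2 fell (2.41%), Rpl38 and Rpl22l1, against 2.36% of all tested genes higher and 1.93% lower. The median was -0.14, against 0.014 over all tested genes. The libraries did not overlap for 23 members, all lower in HC GFP-, where 10.4% of all tested genes were separated in that direction and 13.4% in the other.

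Rpl38 was at 1640, 1666 and 1569 FPKM in HC GFP- against 2266, 2034 and 2425 FPKM in EC GFP- (log2 -0.46 ± 0.11, limma adjusted p = 0.039). Rpl22l1 was at 442, 428 and 438 FPKM in HC GFP- against 594, 538 and 642 FPKM in EC GFP- (log2 -0.43 ± 0.11, limma adjusted p = 0.0495). In both the HC GFP- libraries lay close together and below all EC GFP- libraries. Leaving out 1 library gave counts between 0 and 5. It was 2 without EC GFP+ replicate 3, where Rpl38 did not pass (limma adjusted p = 0.0544). The count was 0 when any HC GFP- library, EC GFP- replicate 1 or 3, HC GFP+ replicate 2 or EC GFP+ replicate 1 was dropped. Of all tested genes, 0.354%, 2.13% and 0.618% were lower without HC GFP- replicates 1, 2 and 3. The share was 0.565% and 1.3% without EC GFP- replicates 1 and 3, 1.78% without HC GFP+ replicate 2 and 1.3% without EC GFP+ replicate 1. The count was 1 when HC GFP+ replicate 1 or 3 was dropped (1.48% and 2.21% of all tested genes lower). It was 5 when replicate 2 of EC GFP+ or of EC GFP- was (1.75% and 2.22%).

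Rpl13a was highest in EC GFP-, at 3931, 4022 and 4346 FPKM in HC GFP- against 6444, 4911 and 6727 FPKM in EC GFP-, but did not pass (log2 -0.54 ± 0.16, limma adjusted p = 0.0811). Relative to the family median 8 members were higher and 4 lower in HC GFP-, against 4.24% and 0.61% of all tested genes. Rps19 (0.32), Rpl27a (0.27), Rpl21 (0.26) and Rpl3 (0.19) were among the higher, and Rpl13a (-0.35), Rps7 (-0.30), Rpl38 (-0.27) and Rps27 (-0.23) were the lower ones.

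The GFP difference in HC was then set against that in EC in an interaction term. With limma no member passed, where 0.188% of all tested genes were higher and 0.339% lower. At an unadjusted p under 0.05, 30 members were higher and 0 lower. At that threshold 830 of all 13278 tested genes were higher and 696 lower. The term lay above 0 for 80 of 83 members with a median of 0.29, against 0.038 over all tested genes. A greater fall in EC than in HC was therefore not established for any member.

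Rps26 came nearest. Its GFP difference was 0.06 ± 0.11 in HC and -0.74 ± 0.11 in EC, and the interaction was 0.79 ± 0.15 (limma adjusted p = 0.054). It passed under 9 of 24 alternatives, among them the fit relative to the family median (0.49, adjusted p = 0.0392), with the length trend removed (0.62, adjusted p = 0.0157), and without EC GFP- replicate 2 (0.90, adjusted p = 0.0256). Rps24 followed (0.59 ± 0.13, limma adjusted p = 0.0726).

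Some members have a close paralog, and the ratio of paralog to parent was taken within each library, from FPKM + 1. The scaling of a library cancels in such a ratio apart from the added 1. These ratios were tested by exact permutation of the library labels within strata (two-sided, 400 arrangements, smallest possible p = 0.005), with Benjamini-Hochberg adjustment over 10 tests on 5 pairs. With 10 tests, a single test at the smallest possible p cannot get an adjusted p under 0.05. Rpl7l1 stood at 5.03% of Rpl7 in HC GFP+, 4.71% in HC GFP-, 4.25% in EC GFP+ and 4.17% in EC GFP-. Its log2 ratio was higher in HC than in EC by 0.21, with every HC library above every EC library (exact permutation p = 0.005, adjusted p = 0.05, n = 6 a side), which is at and not under the threshold. Without HC GFP+ replicate 2 the adjusted p was 0.025 and the difference 0.21. In that setting the Rps27l to Rps27 test (GFP+ minus GFP-) had the same adjusted p. The adjusted value of each depends on the other tests, so the lower value is not stronger evidence for Rpl7l1.

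Rps27l, whose human counterpart is induced by p53, stood at 10.2% of Rps27 in HC GFP+, 9.96% in HC GFP-, 10.2% in EC GFP+ and 9.08% in EC GFP-. The log2 ratio lay at -3.45, -3.47 and -3.45 in the EC GFP- libraries, below the other 9. The GFP+ minus GFP- difference was 0.096 (exact permutation p = 0.035, adjusted p = 0.133, n = 6 a side), and without HC GFP+ replicate 2 it was 0.11 with an adjusted p of 0.025. Rpl22l1 stood at 35.7% of Rpl22 in HC GFP+, 40.1% in HC GFP-, 39.6% in EC GFP+ and 43.0% in EC GFP- (GFP+ minus GFP- -0.15, exact permutation p = 0.05, adjusted p = 0.133, n = 6 a side). Rpl39l, at 0.237% of Rpl39 in HC GFP+, 0.205% in HC GFP-, 0.138% in EC GFP+ and 0.0948% in EC GFP-, had its ratio higher in HC than in EC by 0.57 on the log2 scale (exact permutation p = 0.08, adjusted p = 0.133, n = 6 a side). At its level the added 1 weighs heavily, and with 0.1 added instead the difference was 0.76 (adjusted p = 0.244 by the exact permutation test). Rps4y2 stood at 6.11% of Rps4x in HC GFP+, 6.76% in HC GFP-, 6.67% in EC GFP+ and 6.90% in EC GFP-, and since RefSeq takes it for a pseudogene these reads may belong to either gene. Of the 10 tests none had an adjusted p under 0.05, which a single test alone could not reach, and 3 had an exact p of 0.05 or less.

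**Figure D5:**
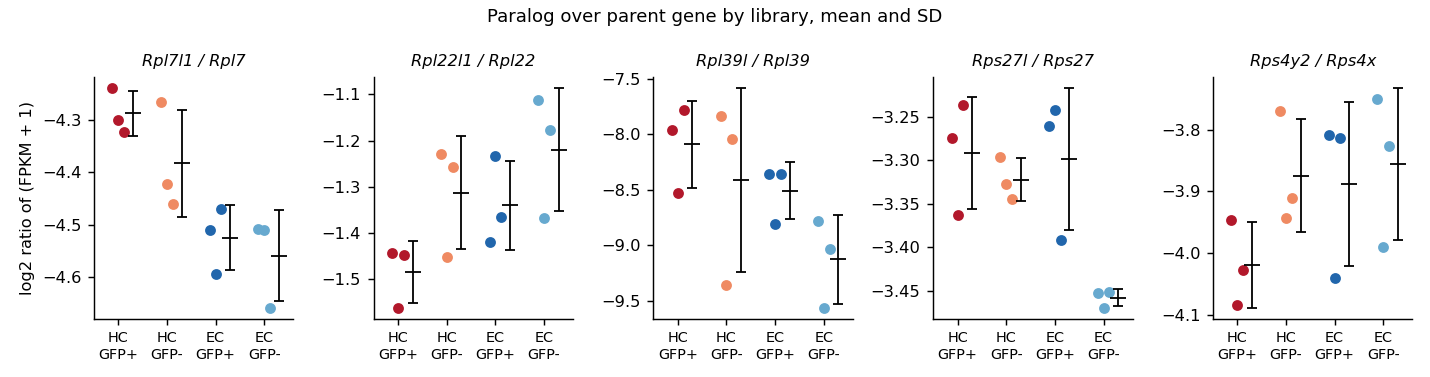
Log2 ratio of (FPKM + 1) of 5 paralogs to their parent genes in each of 12 libraries, in 4 groups; points are libraries, the bar to their right is the mean with its SD, and the scales differ between panels. The Rpl7l1 to Rpl7 ratio of every HC library is above that of every EC library, and the Rps27l to Rps27 ratio is lowest in EC GFP-, at -3.47 to -3.45.

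Genes that make or use ribosomes were set beside the family, to be read against the 6.51% of all tested genes that were lower and 6.96% higher in EC GFP+ against EC GFP-. In that comparison 9 of 40 ribosome assembly genes fell and 0 rose (median -0.18), among them Gnl3, a nucleolar GTPase (log2 -0.80), Nop58, a core protein of box C/D particles (-0.69), and Taf1d of the RNA polymerase I machinery (-0.67). Of 22 translation factors and other TOP mRNAs 6 fell (median -0.24), led by Nap1l1 (-0.51), Naca (-0.33) and the elongation factor Eef1b2 (-0.46). With the protein length trend removed 7 assembly genes and 3 of the translation list fell, and with length and level trends removed 7 and 1, with 1 of the translation list higher (median -0.033). Of 20 mTOR and TOP regulators 2 fell, the translation repressor Eif4ebp1 (-0.41) and the cap-binding Eif4e (-0.37), and 1 rose, Tsc2 (0.27). Their median was 0.022. With the protein length trend removed 1 regulator fell and 0 rose, and with length and level trends removed the counts were the same. Tsc2 was thus called higher in neither fit.

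Other short-protein complexes were lower in EC GFP+ as well. Of 83 nuclear oxidative phosphorylation subunits 30 fell (median -0.34), of 76 mitochondrial ribosomal proteins 15 (median -0.28) and of 37 proteasome subunits 7 (median -0.22), and none of the genes in these 3 lists rose, where 6.51% of all tested genes fell. Their median protein lengths were 144, 194 and 277 amino acids. With the trend on protein length removed, the counts were 12, 7 and 6, where 4.96% of all genes with a length fell.

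In HC GFP+ against EC GFP+ 12 of 40 ribosome assembly genes were higher (median 0.25; 8.21% of all tested genes were), where 5 of 83 ribosomal protein genes were, and the difference between the lists was not tested. Nop56, the partner of Nop58, was higher by log2 0.58 ± 0.07 (limma adjusted p = 0.000638), Nolc1 by 0.53 ± 0.09 and Gar1 by 0.66 ± 0.11. Mycn, a driver of ribosome production, was higher in HC GFP+ than in EC GFP+ (log2 0.80, limma adjusted p = 0.00135) and than in HC GFP- (log2 0.84, limma adjusted p = 0.00204). In HC GFP+ against HC GFP-, 0 of 40 ribosome assembly genes passed.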

How the data were processed

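FPKM values per gene and library were deposited by the authors. Cufflinks, featureCounts, edgeR, DESeq and the build mm9 are named without roles, per the submitters' processing notes. The sources used here do not give the aligner, the annotation or any scaling. Genes that reached an FPKM of 1 in 3 or more libraries were kept, and log2(FPKM + 1) was fitted by limma (version 3.58.1, R 4.3.3) with 4 group means, 8 residual degrees of freedom and an intensity trend. The fit was tested on simulated data. Lengths came from GENCODE annotation of a later build, GRCm38, and length trends were removed by loess with a span of 0.5. The alternatives were another pseudocount, filters, scalings, length trends, fits of 2 groups, a replicate block and each library left out.

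Named genes were paralog pairs, members with known phenotypes, the stalk genes, Rps6, the 5 highest and 5 lowest members, up to 6 rises and 6 falls per comparison without overlap, and up to 3 genes of each other list; 2 genes that this rule named are not reported here. Members and lists were chosen with earlier results of these data known. P-values measure only the spread between these pooled samples.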

Additional observations from a re-analysis of the deposited data

How the results depend on the processing

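Depth is unknown and each group has 3 libraries, so small differences may go undetected; the cause of the changes below was not tested. In EC GFP+ against EC GFP-, the count of members lower, 48, was 20 with no filter, 13 with only these 2 groups fitted, 25 at one common FPKM sum (median -0.18), 13 with 3 higher after quantile normalization (median -0.048), 8 with 9 higher relative to the family median (median 0.018), 25 without the protein length trend (median -0.21), 17 without the transcript length trend (median -0.16) and 13 with 1 higher without the length and level trends (median -0.048). Scaling relative to the family median removes a change shared by the members. Its counts and medians, here and in the comparisons below, therefore do not test such a change. Of all tested genes, 6.51% were lower in the main fit and 4.31% without the transcript length trend. The shares for the other scalings and trends stand with their counts above. They are not given for the fits with no filter or 2 groups. There, calls lost by the family and by all genes cannot be told apart. Single genes called lower turned positive relative to the family median (Rpl7l1 0.11, Rpl7 0.071, Rpl6 0.086, Rpl5 0.054 and Rpl11 0.013), after quantile normalization (Rpl7 0.047 and Rpl41 0.0036) and without the length and level trends (Rpl41 0.16).

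In HC GFP+ against HC GFP-, 1 member was lower at a common sum of the genes other than ribosomal protein, globin and mitochondrial genes, 5 were higher after quantile normalization (median 0.027) and 1 without the length and level trends (median 0.022). Of all tested genes, 1.35% were lower at that common sum. In the same order, 3.1% were higher after quantile normalization and 3.93% without the length and level trends. In HC GFP+ against EC GFP+, the count higher, 5, was 15 at one common sum, 11 at that of the other genes, 15 with 1 lower after quantile normalization, 8 with 1 lower relative to the family median, 8 without the protein length trend and 26 with 1 lower without the length and level trends. Of all tested genes, 7.52% were higher at the sum of the other genes and 7.95% without the protein length trend. After quantile normalization 7.15% were higher and 8.05% lower, and the remaining shares stand above. In HC GFP- against EC GFP-, the count lower, 2, was 0 with no filter, with 2 groups or with the replicate block, 1 at one common sum (median 0.00087) and at that of the other genes, 4 with 8 higher relative to the family median (median 0.052), 7 without the protein length trend and 4 with 7 higher without the length and level trends (median 0.045), and quantile normalization moved the median to 0.019. Of all tested genes, 0.941% were lower at one common sum, 1.27% at that of the other genes and 2.45% without the protein length trend. Without the length and level trends 2.33% were lower and 2.73% higher. The shares with no filter, 2 groups or the replicate block are not given.

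In the interaction, 1 member was higher at a mean FPKM of 5 or more, 2 at one common sum (median 0.14) and at that of the other genes, 1 after quantile normalization (median 0.076), 1 relative to the family median (median -0.012), 1 without the protein length trend (median 0.16), 2 without the transcript length trend (median 0.077) and 1 without the length and level trends (median 0.094). Of all tested genes, 0.211% were higher at one common sum, 0.203% at that of the other genes and 0.211% after quantile normalization. The share was 0.0377% relative to the family median and 0.252% without the protein length trend. It was 0.227% without the transcript length trend and 0.309% without the length and level trends. That at a mean FPKM of 5 or more is not given. The share of the family without globin and mitochondrial genes in the total was 19.1% in EC GFP+ against 23.1% in EC GFP-, and 21.8% in HC GFP-.

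Leaving out 1 library gave 18 to 67 members lower in EC, 3 to 8 higher in HC GFP+ against EC GFP+, 0 to 5 lower in HC GFP- against EC GFP- and 0 to 1 higher in the interaction. It gave differences of 0.18 to 0.23 for the Rpl7l1 to Rpl7 ratio and 0.082 to 0.12 for Rps27l to Rps27. Same-numbered libraries correlated as low as -0.062 to 0.052 in the 4 comparisons (r of deviations from the group mean). Their mean correlation was 0.047 to 0.066, and that of libraries of different number -0.033 to -0.024. Deviations from a group mean cancel within the group, so these means are tied to each other and their contrast does not test pairing. Replicate 2 had the highest endothelial and the lowest mesenchyme marker sum in each of the 4 populations. Whether the numbers mark a shared batch was not tested. No label says that they pair samples, and the main fit did not pair them. A library matched its own number best in 1 of 3 cases for HC GFP+ and HC GFP-, 2 for EC GFP+ and EC GFP-, 3 for HC GFP+ and EC GFP+ and 2 for HC GFP- and EC GFP-. The replicate block moved no other count by more than 1.5 times.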
